A study of Mus musculus with 16 samples.

Results

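The 2 single agents given to mice with MC38 liver metastases, SB525334 and KN046, were compared directly with each other. Every mouse whose label gave one agent alone was taken, 4 mice for SB525334 and 4 mice for KN046, which is 8 of the 16 mice of the series. The control mice and the mice given both agents entered only one alternative fit, that of all 16 mice, and were not tested against either agent. Levels of some genes in the control mice are set side by side near the end, without a test. All hosts were male wild-type C57BL/6 mice, 6 weeks old, in which MC38 cells, a mouse colon adenocarcinoma line, had been placed in the spleen so that tumors would form in the liver. SB525334 was given daily by mouth at 20 mg/kg, and KN046 was injected into the peritoneum at 10 mg/kg repeatedly each week. RNA was taken from tumor tissue of the liver metastases, a piece that held tumor cells, host stroma, immune cells and any neighbouring liver together. The question of the comparison was how the tissue under one agent differed from the tissue under the other. Since no untreated mouse entered it, a difference does not say which agent moved a gene.

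SB525334 blocks the kinase of the type I TGF-β receptor (ALK5, gene Tgfbr1), which phosphorylates SMAD2 and SMAD3 after TGF-β binds and so drives matrix and contractile genes in fibroblasts and restrains T cells. KN046 is an antibody with arms against PD-L1 (gene Cd274), which silences T cells through PD-1, and CTLA-4, which competes with CD28 for the co-stimulatory ligands CD80 and CD86. The agents therefore act on different cells of a metastasis, the first on cells that receive TGF-β and the second on the contact between T cells and the cells that present antigen to them.

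The deposited tables listed 21959 genes, and 4564 of them had no count in any of the 8 mice. The libraries of the SB525334 mice held 21584449 to 23877131 counts and those of the KN046 mice 19241084 to 19893033, so every SB525334 library was deeper than every KN046 library. After thinning all 8 libraries to one depth, 459 genes were higher and 1376 lower, against 470 and 1381 as deposited. Replicates of a group agreed more closely with SB525334 than with KN046, and KN046 mice 1 and 2 were the pair farthest apart, with a median chi-square per gene of 18.7 against 2.97 to 11.6 in the other pairs. A principal component analysis took the 2000 genes with the largest variance over these 8 mice, a choice that favours genes that differ between the groups. The first component held 71.4% of the variance of those genes. On it the SB525334 mice lay between -74.7 and -26.3 and the KN046 mice between 34.3 and 54.8. The labels name separate mice but no litter, day or batch of extraction. Of epithelial markers, Cdx2, an intestinal transcription factor, was at 0 in all 8 mice and Epcam, an epithelial adhesion protein, had a mean of 0.869 ± 0.243 (SD, n = 4) with SB525334 and 2.06 ± 1.22 (SD, n = 4) with KN046 CPM (counts scaled to library size by TMM, as all levels below). Vim, the intermediate filament of mesenchymal cells, had a mean of 4126 ± 166 (SD, n = 4) CPM and 5115 ± 1204 (SD, n = 4) CPM. Other epithelial genes had higher levels, with Krt8 at 16.3 ± 5.78 (SD, n = 4) and 67.8 ± 16 (SD, n = 4) CPM and Cdh1 at 11.6 ± 3.82 (SD, n = 4) and 21.5 ± 5.02 (SD, n = 4) CPM, and hepatocytes make both as well.

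Of 13459 genes tested, 470 were higher with SB525334 than with KN046, which is 3.49% of them, and 1381 were lower, which is 10.3%, at an edgeR adjusted p under 0.05. In either direction the share was 13.8%, and counts of called genes in the lists below are to be read beside these shares. All adjusted p-values below are from this edgeR quasi-likelihood test with Benjamini-Hochberg adjustment over the 13459 genes, log2 differences are SB525334 minus KN046, and a gene is said to be higher, lower, to rise or to fall only where it passed that test. The 2 directions differed in size. Among the genes that were higher, 48 differed by more than 2-fold, 4 by more than 4-fold and 0 by more than 8-fold, and their median was 1.46-fold. Among those lower, 950 differed by more than 2-fold, 636 by more than 4-fold and 331 by more than 8-fold, and their median was 3.44-fold. The levels of the 8 mice did not overlap between the groups in 449 of the higher and 1283 of the lower genes, where 23% of all genes tested had groups without overlap. Leaving out 1 mouse moved the higher count more than the lower one: to 82 without SB525334 mouse 1, to 286, 274 and 226 without SB525334 mice 2, 3 and 4, to 301 without KN046 mouse 1 and to 1047 without KN046 mouse 2. The lower count moved by over 1.5 times only without SB525334 mouse 1, to 881.

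**Figure D1:**
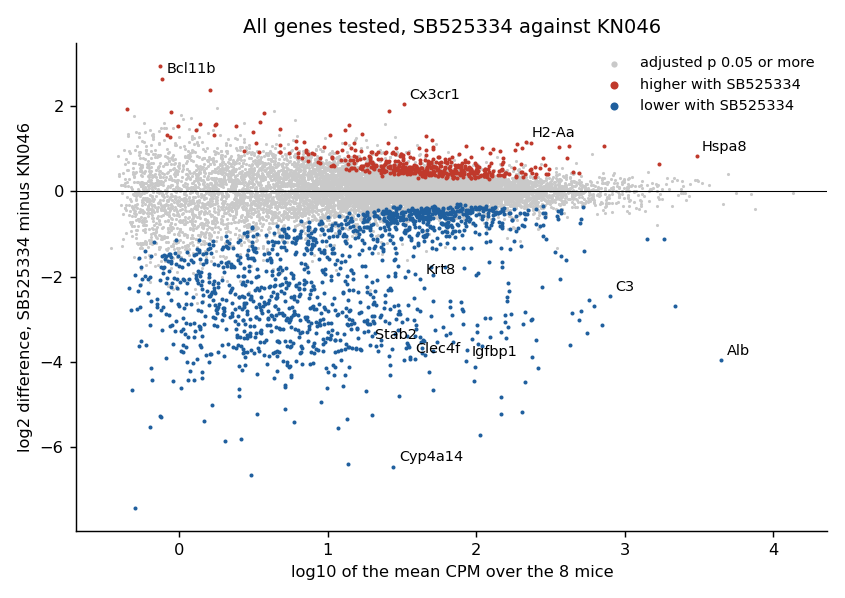
Log2 difference (SB525334 minus KN046, vertical axis) of each of the 13459 genes tested against log10 of its mean CPM over the 8 mice (horizontal axis). Red points are the 470 genes higher and blue points the 1381 genes lower with SB525334. The lowest blue point is Sult1b1 at -7.43, a fitted value, since its 0 counts with SB525334 give only a bound of at least 31.0-fold. The highest red point is Apol7c at 2.94, and most red points lie close to 0.

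Genes of the hepatocyte, the liver cell that makes plasma proteins and clears metabolites, were lower with SB525334. All 18 tested genes of the hepatocyte list fell, none of them with overlap between the groups, and their median log2 difference was -3.13, beside -0.01 for all genes tested. Summed over the list, the level was 474 to 2137 CPM with SB525334 and 10305 to 20907 CPM with KN046. In a bulk RNA sample, fewer hepatocytes in the piece and less of these RNAs per hepatocyte cannot be told apart. With TMM factors computed without the liver lists 468 genes were higher and 1390 lower over all genes. Alb, which encodes serum albumin, was at 652, 871, 493 and 129.6 CPM in SB525334 mice 1 to 4 and at 5727, 8617, 11018 and 8053 CPM in KN046 mice 1 to 4. Every KN046 mouse lay above every SB525334 mouse, and SB525334 mouse 4 was the lowest of the 8. The log2 difference was -3.96 (SE 0.49, adjusted p = 0.000781). Apob, the apolipoprotein of liver-made lipoproteins, fell by 4.13 on the log2 scale (adjusted p = 0.000394) and Cps1, the first enzyme of the urea cycle, by 5.23 (0.000723). Within a group the mice differed too. Cps1 was at 11.1, 13, 5.53 and 0.65 CPM in SB525334 mice 1 to 4, the same order of mice as for Alb.

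The gene outside every list with the smallest adjusted p was Igfbp1, a secreted protein made in the liver that binds insulin-like growth factors. It was at 10.1, 9.64, 12 and 8.84 CPM with SB525334 and at 104, 166, 225 and 149 CPM with KN046. The SB525334 mice were close together, with an SD of 1.35 on a mean of 10.1, and the groups were far apart. The log2 difference was -3.99 (SE 0.23, adjusted p = 3.99e-05).

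**Figure D2:**
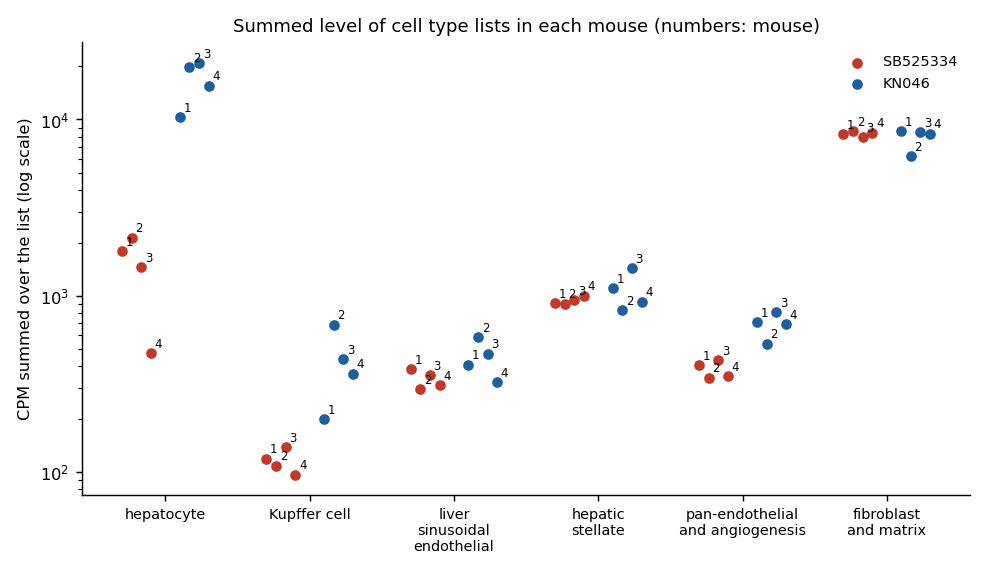
CPM summed over 6 cell type lists in each mouse (vertical axis, log scale), with SB525334 in red and KN046 in blue and the mouse number beside each point. Hepatocyte, Kupffer and pan-endothelial sums do not overlap between the groups. The sinusoidal endothelial, stellate, and fibroblast and matrix sums do.

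Genes of liver metabolism differed in the same direction. Of the hepatocyte transcription factors, 11 of 14 tested fell, among them Hnf4a, the nuclear receptor that maintains hepatocyte identity, by 3.59 on the log2 scale, Nr1i2, the xenobiotic receptor PXR, by 3.87, and Creb3l3 by 3.14. Onecut1, another of them, had 2 counts in the 4 SB525334 mice together and 96 in the 4 KN046 mice, a ratio of 58.7 with an exact 95% counting interval of 15.8 to 491.3. Of the cytochrome P450 enzymes, which oxidize drugs, steroids and fatty acids, 18 of 20 fell, with a list median of -3.45. Cyp4a14, an ω-hydroxylase of fatty acids, was at 0.771, 0.714, 1.0 and 0 CPM with SB525334 and at 126, 17.8, 59.6 and 15.5 CPM with KN046. The KN046 mice differed widely among themselves, and none came near an SB525334 mouse. The related Cyp4a10 fell by 5.55 and Cyp4a31 by 6.66. The 3 Cyp4a genes are close paralogs, and how reads common to them were counted is not given in the sources used here. Cyp3a11, the main drug-oxidizing P450 of mouse liver, was at 11.1, 18.5, 3.48 and 0.737 CPM against 139, 197, 249 and 149 CPM and fell by 4.43.

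Among the other metabolic lists, 9 of 12 bile acid genes fell (median -3.58), including Slc10a1, the bile acid importer of the hepatocyte, by 3.71 on the log2 scale, and Akr1d1, a reductase of bile acid synthesis, by 5.10. Of the urea cycle and ammonia genes 8 of 10 fell, with a smaller median of -1.20. Arg1, the arginase of that cycle and also a gene of myeloid cells, was at 80.4, 44.5, 131 and 224 CPM against 232, 205, 371 and 278 CPM and did not pass the test (log2 -1.18, adjusted p = 0.0759). The peroxisome and fatty acid oxidation list had 14 of 21 genes lower. Ehhadh, a peroxisomal β-oxidation enzyme, fell by 4.80. Plin2, a lipid droplet coat protein of many cell types, was at 256 ± 29.3 (SD, n = 4) CPM against 321 ± 23.6 (SD, n = 4) CPM (log2 -0.33, adjusted p = 0.0747). None of these 5 lists had a gene that was higher with SB525334.

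Plasma proteins of hepatocyte origin were lower as groups. All 13 tested apolipoproteins fell (median -3.03), as did 17 of 22 acute-phase proteins (median -2.72), 17 of 24 complement genes (median -2.37) and 20 of 29 coagulation and fibrinolysis genes (median -2.92). The share of genes called lower over all genes was 10.3%. Hpx, the heme-binding plasma protein hemopexin, was at 236, 170.5, 189 and 69.3 CPM with SB525334 and at 529, 1479, 1358 and 920.1 CPM with KN046. Fga was at 142, 128, 104 and 34 CPM against 330.0, 1561, 1175 and 978 CPM. KN046 mouse 1 was the lowest of its group for both, though still above each SB525334 mouse. F5, coagulation factor V, fell by 3.94 on the log2 scale and Kng2, a kininogen, by 3.01. C3, the central complement protein, was at 312, 235, 211 and 222 CPM against 597, 2004, 1660.0 and 1139.5 CPM and fell by 2.46 (SE 0.32, adjusted p = 0.000897). The classical pathway subunit C1qa, which macrophages make, was at 325, 245, 195 and 269 CPM against 111, 238, 155 and 173 CPM and did not pass the test (log2 0.61, adjusted p = 0.0878). The number of complement genes called higher was 4 without KN046 mouse 2, with DESeq2, and with all 16 mice in 1 fit. It was 1 with the replicate number as a block. Of 14 iron handling genes 8 fell, including Tfr2, a sensor of iron in hepatocytes, by 2.94, and Cp, the ferroxidase ceruloplasmin, by 2.24.

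**Figure D3:**
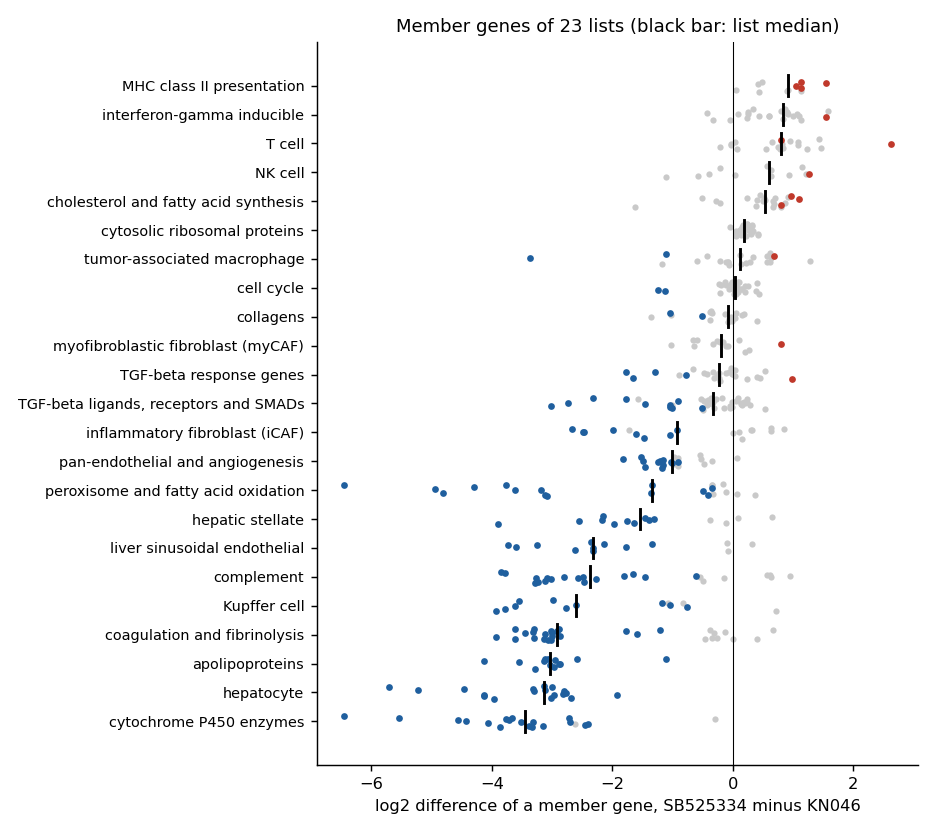
Log2 difference (SB525334 minus KN046, horizontal axis) of each tested member of 23 gene lists, one list per line, with the list median as a black bar. Red and blue points passed the test and grey points did not. The hepatocyte list has its median at -3.13 and all its points in blue, and the MHC class II list has its median at 0.91 and all its points above 0.

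Genes of the other resident cells of liver differed in the same direction as the hepatocyte genes, and the part of the hepatocyte difference in these was not tested. Of 13 Kupffer cell genes, which mark the macrophages that live in the liver sinusoids, 10 fell, with a median of -2.61. Their summed level was 96.6 to 139 CPM with SB525334 and 199.9 to 687 CPM with KN046, with no overlap. Clec4f, a lectin restricted to Kupffer cells in mice, was at 6.17, 7.14, 3.26 and 0.997 CPM with SB525334 and at 12.4, 148, 58.5 and 48.3 CPM with KN046. KN046 mouse 2 was far above the rest, and KN046 mouse 1 was the nearest to the SB525334 mice, as in the summed hepatocyte list. Clec4f fell by 3.92 on the log2 scale (adjusted p = 0.00569), Vsig4, a complement receptor of these cells, by 2.77, Marco, a scavenger receptor, by 2.99, and Timd4, a receptor for dying cells, by 3.62.

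Sinusoidal endothelial cells line the liver capillaries and clear waste from blood through scavenger receptors. Of 13 tested genes of this cell 10 fell, with a median of -2.31. Their summed level overlapped between the groups, at 296 to 384 CPM with SB525334 and 323 to 581 CPM with KN046. Stab2, one such receptor, was at 3.13, 3.45, 3.61 and 1.56 CPM with SB525334 and at 36.6, 40.1, 39 and 26.8 CPM with KN046. The groups were far apart relative to their spread, and the log2 difference was -3.60 (SE 0.26, adjusted p = 6.98e-05). Lyve1, a hyaluronan receptor, fell by 3.73. Stab1, a paralog of Stab2 that macrophages also express, did not pass the test, with a mean of 129 ± 19.6 (SD, n = 4) CPM against 138 ± 51.7 (SD, n = 4) CPM (log2 -0.09, adjusted p = 0.807).

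Endothelial genes that are not particular to liver were lower too, by less. Of 21 tested, 12 fell and 0 rose, with a median of -1.01, and the summed level was 343 to 431 CPM against 535 to 808 CPM. Without KN046 mouse 3 the count was 7. Pecam1 (CD31, the common endothelial marker) was at 18, 19.9, 19.2 and 9.28 CPM with SB525334 and at 36.1, 27.5, 49 and 40.9 CPM with KN046, and fell by 1.21 on the log2 scale (SE 0.25, adjusted p = 0.00929). No SB525334 mouse reached the lowest KN046 mouse. Vwf, the platelet-tethering factor of endothelial granules, fell by 1.83, Plvap, which forms the diaphragms of fenestrae, by 1.16, Kdr, the main VEGF receptor, by 1.46, and Angpt2, a ligand released by sprouting vessels, by 1.24. Vegfa, the growth factor for these cells, was at 206, 147, 209 and 229 CPM against 355, 175, 338 and 282 CPM and did not pass the test (log2 -0.54, adjusted p = 0.112).

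Hepatic stellate cells, the pericytes of the sinusoid that store vitamin A, had 10 of 14 listed genes lower (median -1.55), but the sum over the list overlapped between the groups, at 902 to 1004 CPM and 829 to 1439 CPM. Rgs5, a pericyte regulator of G-protein signals, had the smallest adjusted p of the list. It was at 6.22, 5.47, 5.96 and 6.02 CPM with SB525334 and at 17.2, 13.8, 18.8 and 15 CPM with KN046, and fell by 1.45 on the log2 scale (adjusted p = 0.000511). Gdf2, the ligand BMP9, fell by 2.56 and Reln, the secreted glycoprotein reelin, by 1.98.

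**Figure D4:**
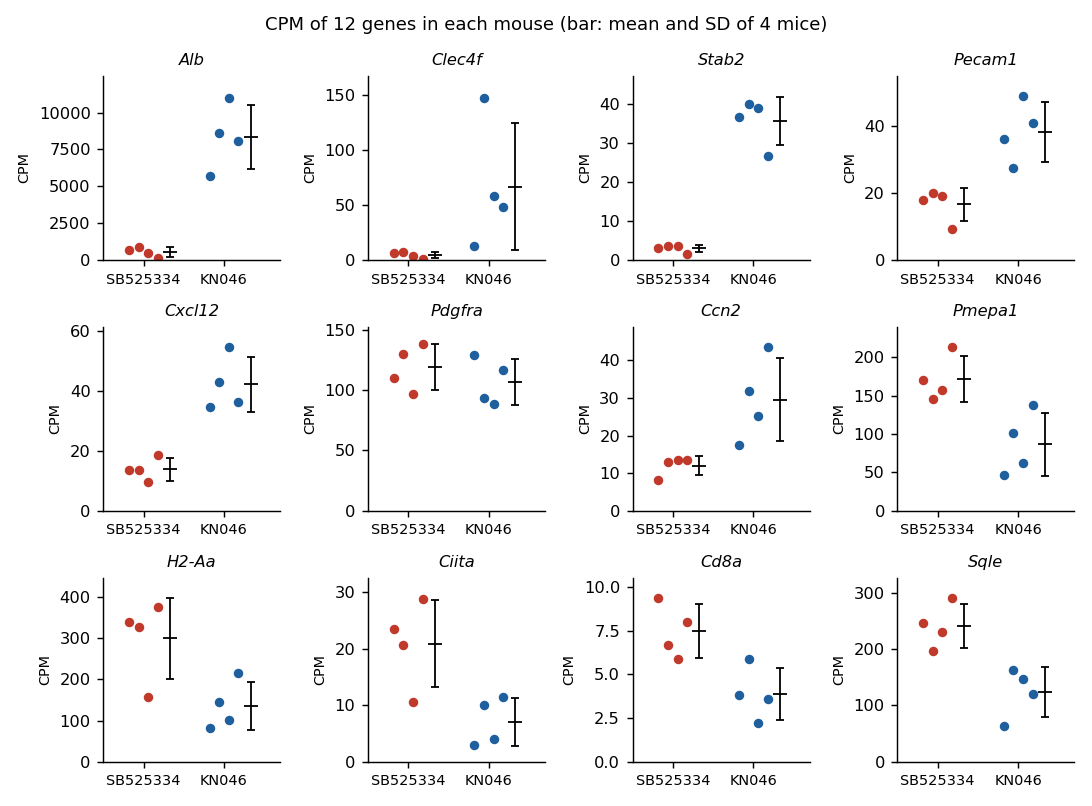
CPM (vertical axes, from 0) of 12 genes in each of the 4 SB525334 mice (red) and the 4 KN046 mice (blue), with the mean and SD of each group as a black bar. Alb, Stab2, Clec4f, Pecam1 and Cxcl12 are lower in every SB525334 mouse than in any KN046 mouse, and Pdgfra overlaps.

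Cancer-associated fibroblasts make the collagen matrix of a metastasis, and the contractile (myofibroblastic) kind depends on TGF-β in culture. The study stained markers of these cells as protein and reported lower staining with SB525334. From RNA of the liver metastases it also reported lower TGF-β signaling with SB525334 than in controls. The values here are RNA and set SB525334 against KN046, so they repeat neither of those comparisons. Among the genes of the stained fibroblast markers only Cxcl12, given below, passed the test, and Tagln and Il6 were not tested. Pdgfra, a receptor on most of these cells, was at 109.9, 130.3, 97.2 and 139 CPM with SB525334 and at 129, 93.6, 88.3 and 117 CPM with KN046 (log2 0.15, SE 0.15, adjusted p = 0.506). The groups overlapped over most of their range. Acta2, the smooth muscle actin of myofibroblasts, was at 36.4, 33.7, 33.7 and 43.6 CPM against 18.5, 47.7, 45.5 and 65 CPM (log2 -0.26, adjusted p = 0.559), with KN046 mouse 1 the lowest and KN046 mouse 4 the highest of the 8. Postn, a matrix protein, was at 40.9 ± 3.09 (SD, n = 4) CPM against 44.3 ± 14.5 (SD, n = 4) CPM (-0.12, adjusted p = 0.718), and Fap, the protease that gives these cells one of their names, at 1.33 ± 0.614 (SD, n = 4) CPM against 0.937 ± 0.429 (SD, n = 4) CPM (0.51, adjusted p = 0.446). Tagln, another contractile gene, had 3 counts with SB525334 and 12 with KN046 over 4 mice each and was not tested.

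Of 14 tested myofibroblast genes 1 was higher (Thy1) and 0 lower (median -0.19), and of 20 fibroblast and matrix genes 0 were higher and 1, Fbln5, an elastic fibre protein, lower (median 0.13). These shares, 7.14% and 5%, lie below the 13.8% of all genes called in either direction. The collagens had 2 of 19 lower (median -0.08), 10.5% of them beside 10.3% of all genes. These were Col14a1, which coats collagen fibrils, by 1.05 on the log2 scale, and Col18a1, a basement membrane collagen, by 0.51 (adjusted p = 0.0424). The collagen count was 5 without KN046 mouse 2 and 1 without SB525334 mouse 1, 2 or 3 or KN046 mouse 3 or 4. Col1a1, the main chain of type I collagen, was at 798, 2264, 1059 and 1019 CPM against 629, 1697, 1457 and 1609 CPM (log2 -0.07, SE 0.36, adjusted p = 0.912). The spread within each group was larger than the distance between them, and the sign changed without SB525334 mouse 1, 3 or 4 or KN046 mouse 2 or 4. Thy1 was not called without SB525334 mouse 1, 3 or 4 or KN046 mouse 1 or 3, and Fbln5 not without SB525334 mouse 1, 3 or 4.

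The inflammatory fibroblast list, by contrast, had 8 of 17 genes lower and 0 higher (median -0.92). Cxcl12, the chemokine that holds CXCR4-bearing lymphocytes in stroma and that fibroblasts, endothelium and stellate cells make, was at 13.6, 13.6, 9.49 and 18.6 CPM in SB525334 mice 1 to 4 and at 34.8, 43.1, 54.7 and 36.4 CPM in KN046 mice 1 to 4. No mouse of one group reached the other. The means were 13.8 ± 3.71 (SD, n = 4) and 42.2 ± 9.03 (SD, n = 4) CPM and the log2 difference -1.61 (SE 0.21, adjusted p = 0.00094). The other members that fell included Igf1, a growth factor that hepatocytes secrete, by 2.68, C3 by 2.46 and C4b, a further complement protein of liver, by 2.49. Those 3 are also hepatocyte products, and which cells gave their difference was not tested. Il6, an inflammatory fibroblast cytokine, had 8 counts with SB525334 and 35 with KN046 and was not tested.

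Of 40 tested TGF-β family ligands, receptors and SMADs, 0 were higher and 10 were lower, with a median of -0.33. The share called was 25%, beside 13.8% of all genes. The lower count was 5 without SB525334 mouse 3 or 4 and 6 without SB525334 mouse 2 or KN046 mouse 3. Among ligands, Bmp2, a BMP of liver endothelium, was at 0.771, 0.595, 1.91 and 1.04 CPM with SB525334 and at 6.64, 5.19, 5.96 and 3.86 CPM with KN046 and fell by 2.32 on the log2 scale (adjusted p = 0.00294). Inhbe, an activin subunit made by hepatocytes, fell by 3.01, and Inhbb, the subunit of activin B, by 1.45. Tgfb1, the main TGF-β ligand, was at 127, 125, 127 and 137 CPM against 104, 101, 124 and 119 CPM, with no overlap but a small difference that did not pass the test (log2 0.21, adjusted p = 0.167). Ltbp4, which stores latent TGF-β in the matrix and was the member with the highest level, was at 1152 ± 88.4 (SD, n = 4) CPM against 1429 ± 316 (SD, n = 4) CPM (-0.31, adjusted p = 0.206). Lrrc32, which anchors latent TGF-β on regulatory T cells, platelets and endothelium, fell by 1.0. The receptor that SB525334 inhibits, Tgfbr1, was at 88.6, 69.7, 75.8 and 87.1 CPM with SB525334 and at 71.9, 82.5, 62.8 and 66.4 CPM with KN046 (log2 0.18, SE 0.12, adjusted p = 0.309). An inhibitor of a kinase need not change the level of its RNA.

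Genes that TGF-β induces in many cell types went in both directions. Of 25 tested, 1 was higher and 4 were lower, with a median of -0.23. The share called was 20%, beside 13.8% of all genes. Ccn2, the connective tissue growth factor, was at 8.17, 12.9, 13.5 and 13.6 CPM against 17.4, 31.8, 25.3 and 43.5 CPM and fell by 1.29 (adjusted p = 0.0102). Bhlhe40, a transcription factor also induced by hypoxia, fell by 1.66, a call lost without SB525334 mouse 1, 2 or 4 or KN046 mouse 1 or 3. Pmepa1, which TGF-β induces and which dampens SMAD signalling, was the 1 higher, at 170.0, 146, 157 and 213 CPM with SB525334 and at 46.1, 101, 62.3 and 137 CPM with KN046. The groups did not overlap, the log2 difference was 0.98 (SE 0.29, adjusted p = 0.0457), and the call was lost without any one SB525334 mouse, without KN046 mouse 1 or 3, and with library totals alone. Col3a1, a fibrillar collagen, was at 5622 ± 1250.2 (SD, n = 4) CPM against 4255 ± 864 (SD, n = 4) CPM (0.40, adjusted p = 0.189). The lower count was 1 without SB525334 mouse 1 or 2 or KN046 mouse 3 and 2 without KN046 mouse 4.

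Of the 8 genes of drug targets and checkpoint partners, 0 passed the edgeR test, 3 had an unadjusted p under 0.05 (31.9% of all genes did), and DESeq2 called 1 higher and 1 lower. Cd274 was at 5.85, 4.12, 6.05 and 6.72 CPM with SB525334 and at 7.23, 6.56, 6.35 and 8.4 CPM with KN046 (log2 -0.33, SE 0.22, adjusted p = 0.314). Ctla4 was at 0.363, 0.476, 0.435 and 1.26 CPM against 4.78, 0.588, 2.06 and 1.46 CPM (log2 -1.80, adjusted p = 0.0815). KN046 mouse 2 lay below SB525334 mouse 4, so the groups overlapped. Pdcd1, which encodes PD-1, was at 4.99, 3.45, 3.18 and 4.68 CPM against 1.33, 2.99, 1.45 and 2.82 CPM without overlap (0.92, adjusted p = 0.092). Cd80, Cd86 and Cd28 had log2 differences of 0.10, 0.07 and 0.07, all of which changed sign without KN046 mouse 1. Pdcd1lg2, the second PD-1 ligand, was at 1.32, 1.03, 0.914 and 4.16 CPM against 0, 0.784, 0.445 and 0.992 CPM (1.72, adjusted p = 0.15).

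Few T cell genes passed the test, and both that did were higher with SB525334. Of 19 tested, 16 had a log2 difference above 0, 2 were higher and 0 lower, and the median was 0.80. Over all genes 3.49% were higher. By flow cytometry of liver metastases the study reported an increase of CD8+ and CD4+ T cells with KN046 alone. It reported no such increase with SB525334 alone. Those were shares of cells, while the values here are RNA of the whole piece, and why the directions differ was not tested. Bcl11b, a transcription factor of the T cell lineage, was at 1.68, 0.952, 1.39 and 1.26 CPM with SB525334 and at 0.266, 0.245, 0.0557 and 0.261 CPM with KN046. Its level was low in every mouse and the groups did not overlap, with a log2 difference of 2.63 (SE 0.45, adjusted p = 0.00374). Thy1, a surface protein of T cells that fibroblasts carry too, rose by 0.80 (adjusted p = 0.0383). Cd8a, the co-receptor of cytotoxic T cells, was at 9.39, 6.7, 5.87 and 7.98 CPM with SB525334 and at 3.83, 5.88, 2.23 and 3.6 CPM with KN046. KN046 mouse 2 overlapped the lowest SB525334 mouse by a narrow margin, and the difference did not pass the test (log2 0.94, SE 0.30, adjusted p = 0.0597). Cd3d, a chain of the T cell receptor complex, had 1.46 (adjusted p = 0.0534), Cd8b1 1.42 (0.055) and Cd4, the co-receptor of helper T cells, 0.65 (0.333). Tcf7, which T cells share with other lineages, was at 43.7 ± 5.97 (SD, n = 4) CPM against 44.6 ± 3.2 (SD, n = 4) CPM, by far the highest of the list, and its difference of -0.03 changed sign with upper-quartile scaling and with library totals. The number of T cell genes higher was 1 without SB525334 mouse 1, 3 or 4 or KN046 mouse 1 or 3, 4 without KN046 mouse 4 and 7 without KN046 mouse 2, and 1 to 6 over the other settings.

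Effector genes gave few calls. Gzmb, the granzyme of killer cells, was at 8.3, 1.9, 4.79 and 6.2 CPM with SB525334 and at 3.61, 3.63, 0.891 and 1.67 CPM with KN046, overlapping (log2 1.11, SE 0.51, adjusted p = 0.162). Ifng, the cytokine itself, had 11 counts with SB525334 and 2 with KN046 over 4 mice each, too few to test. Tbx21, the transcription factor T-bet of Th1, cytotoxic and natural killer cells, was higher by 1.26 (adjusted p = 0.0367), a call lost without SB525334 mouse 1, 3 or 4 or KN046 mouse 1, 3 or 4. Of 12 natural killer cell genes, 17 exhaustion and activation genes and 10 granzyme genes, 1 each was higher (Tbx21 in the natural killer and exhaustion lists and Serpinb9, a granzyme B inhibitor, in the granzyme list). In the exhaustion list Cd38, an ectoenzyme of activated cells, was lower by 0.48. Without KN046 mouse 2, 3 natural killer and 5 exhaustion genes were higher. Serpinb9 was not called without SB525334 mouse 1 or 4 or KN046 mouse 1, 3 or 4, and Cd38 was called only without KN046 mouse 1 among the fits that left out 1 mouse. Of 10 regulatory T cell genes, Lrrc32 alone was called, lower, though not without SB525334 mouse 3 or KN046 mouse 3, and of 10 B and plasma cell genes and 16 dendritic cell genes none was, where edgeR gave 2 and 4 genes with an unadjusted p under 0.05. Of all genes tested, 31.9% had an unadjusted p under 0.05 by edgeR. DESeq2 and the other settings called 0 to 3 B and plasma cell genes lower and 0 or 1 dendritic cell gene higher.

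MHC class II molecules display peptides to CD4+ T cells. All 11 tested genes of this list had a log2 difference above 0, 4 of them passed the test and the median was 0.91. The summed level was 1092 to 2420.2 CPM with SB525334 and 634 to 1393 CPM with KN046. H2-Aa, an α chain, was at 338, 326, 156 and 375 CPM in SB525334 mice 1 to 4 and at 82.5, 145, 101 and 215 CPM in KN046 mice 1 to 4. SB525334 mouse 3 lay below KN046 mouse 4, and the other mice kept to their sides. The log2 difference was 1.14 (SE 0.32, adjusted p = 0.0399). Cd74, the invariant chain, rose by 1.05 (adjusted p = 0.042), H2-Ab1, a β chain, by 1.13 (0.0433), and Ciita, the master regulator of these genes, by 1.55 (0.0394). Ciita was at 23.5, 20.6, 10.6 and 28.8 CPM against 2.98, 10, 3.95 and 11.4 CPM, with the same mice at the overlap. H2-Eb1 missed the threshold at 0.0509 with 1.14. All 4 calls were lost without SB525334 mouse 1, 2 or 4 or KN046 mouse 1 or 3, with adjusted p from 0.0622 to 0.111, while 7 genes were higher without SB525334 mouse 3, 5 without KN046 mouse 2 and 6 without KN046 mouse 4. The other settings called 4 to 7. The H2-Aa promoter is shown because it carries, in capitals, the letters CTGATTGG of the Y box, one of the elements at which class II promoters are bound, 51 bases before the start. It is chr17:34287824-34288073 on the minus strand of GRCm38.p6 from RefSeq, written 5′ to 3′ on the strand of the gene.
H2-Aa: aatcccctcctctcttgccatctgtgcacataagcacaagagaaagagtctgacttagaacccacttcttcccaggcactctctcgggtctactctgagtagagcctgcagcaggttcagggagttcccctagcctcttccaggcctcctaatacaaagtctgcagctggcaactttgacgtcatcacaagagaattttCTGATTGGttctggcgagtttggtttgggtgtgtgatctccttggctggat
These letters, searched on both strands, were in 1258 of 32851 promoters (3.83%) and in 3 of the 9 list genes that had a promoter in the table (H2-Aa, H2-Eb1 and H2-Oa).

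Interferon-γ-inducible genes had a median of 0.83, and 22 of 25 were above 0, but 1, Ciita, passed the test. The count was 0 without SB525334 mouse 1, 2 or 4 or KN046 mouse 1 or 3, 3 without SB525334 mouse 3, 5 without KN046 mouse 2 and 4 without KN046 mouse 4. It was 6 with DESeq2, 7 with the replicate number as a block and 3 with no filter on low counts or with all 16 mice in 1 fit. Cxcl9, the chemokine that draws CXCR3-bearing T cells, was at 49.1, 29.9, 18.1 and 49 CPM with SB525334 and at 3.61, 17.5, 7.07 and 20.6 CPM with KN046 (log2 1.58, adjusted p = 0.0556). Gbp2, a guanylate-binding protein, was at 82, 65.2, 42.5 and 102 CPM against 21.7, 38.4, 19.2 and 57.1 CPM (1.09, adjusted p = 0.0618), and Irf1, a transcription factor of the response, at 99.9, 107, 71.7 and 109 CPM against 25.7, 66.7, 28.5 and 95.2 CPM (0.84, adjusted p = 0.142). KN046 mice 1 and 3 were the low ones and SB525334 mouse 3 was the lowest of its group in each of the 3 genes, as for H2-Aa. In the MHC class I list 3 of 23 were higher: Psmb10, an immunoproteasome subunit, by 1.0 (adjusted p = 0.00812), Psme2, a proteasome activator, by 0.57 (0.0152), and Tapbpl, a relative of the peptide-loading factor tapasin, by 0.55 (0.0161). Without SB525334 mouse 3 the count was 5, and Psme2 was not called without SB525334 mouse 1. Psmb10 was at 71.8, 70.2, 56.6 and 76 CPM against 20.7, 41.3, 35.2 and 40.4 CPM, without overlap. The class I heavy chain H2-D1 had a log2 difference of 0.06 (adjusted p = 0.847).

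Of 27 tested type I interferon-stimulated genes, 4 were lower and 0 higher, and the median was -0.67. The share called was 14.8%, beside 13.8% of all genes. Without KN046 mouse 2 the median was 0.03. The lower count was 1 without SB525334 mouse 1, 2 without SB525334 mouse 2, 3 or 4 or KN046 mouse 2 or 4, and 7 without KN046 mouse 3. Ifit2, which binds viral RNA, was at 16.4, 14, 19.6 and 18 CPM with SB525334 and at 34.7, 35, 22.5 and 34.7 CPM with KN046 and fell by 0.90 on the log2 scale (adjusted p = 0.0065). Rsad2, the antiviral protein viperin, was at 2.31, 2.5, 3.52 and 4.81 CPM against 8.98, 11.9, 4.4 and 19.5 CPM and fell by 1.77, a call lost without SB525334 mouse 1 or 2. Bst2, which tethers virions, was at 103 ± 14.7 (SD, n = 4) CPM against 101 ± 15.6 (SD, n = 4) CPM (adjusted p = 0.871).

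**Figure D5:**
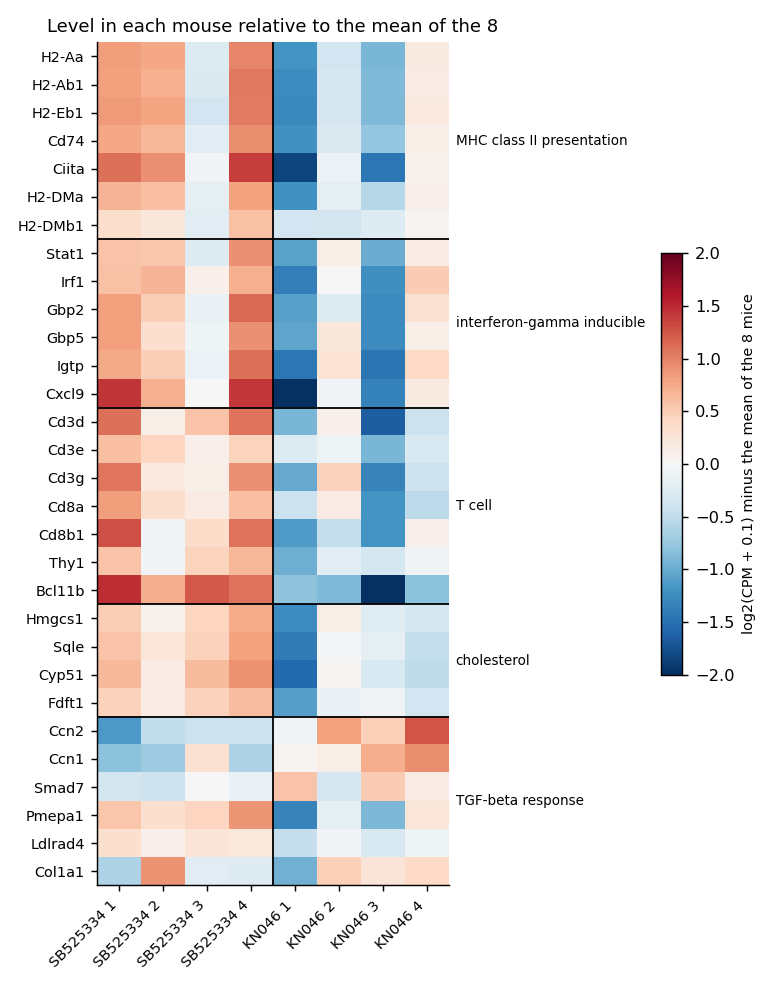
Level of 30 genes in each mouse as log2(CPM + 0.1) minus the mean over the 8 mice, from blue (-2) to red (2), grouped by list with SB525334 mice on the left. In the H2-Aa line SB525334 mouse 3, at 156 CPM, is the lowest of its group and KN046 mouse 1, at 82.5 CPM, the lowest of the 8.

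Of 22 tumor-associated macrophage genes 1 was higher and 2 lower (median 0.12), a share of 13.6% beside 13.8% of all genes. Trem2, a lipid receptor of tumor macrophages, was at 36, 24.7, 23.9 and 36.5 CPM with SB525334 and at 19.9, 19.9, 16.9 and 18.8 CPM with KN046, without overlap, and rose by 0.68 (adjusted p = 0.0231). Cd163, the hemoglobin scavenger receptor that Kupffer cells share, was at 1.18, 3.17, 2.61 and 0.477 CPM against 11, 30.2, 24.2 and 11.8 CPM and fell by 3.36. Apoe, made by both macrophages and hepatocytes, fell by 1.11. Of genes outside the list, Lyz2, the lysozyme of myeloid cells and chosen after its value was seen, was at 1229.9, 885, 756 and 1060.3 CPM against 275, 665, 448 and 498 CPM and rose by 1.06 (adjusted p = 0.0173), though not without SB525334 mouse 1. Without KN046 mouse 2, 6 macrophage genes were higher, and without SB525334 mouse 1 or 4 or KN046 mouse 3 none was. Without SB525334 mouse 3 the lower count was 1. The other settings called 1 to 4 higher.

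Among the 10 genes with the largest rise by the naming rule, Bcl11b was followed by Ccl17, a chemokine of dendritic cells and macrophages, at 2.13, 2.86, 2.05 and 3.77 CPM with SB525334 and 0.0532, 0.833, 0.278 and 0.887 CPM with KN046 (log2 2.37, adjusted p = 0.0217). Cx3cr1, the fractalkine receptor of monocytes and macrophages, was at 74.4, 54, 35.8 and 45.2 CPM with SB525334 and at 1.86, 26.3, 6.62 and 16 CPM with KN046. KN046 mouse 1 was far below KN046 mouse 2, and no KN046 mouse reached the lowest SB525334 mouse. The log2 difference was 2.04 (SE 0.58, adjusted p = 0.0412), and the call was lost without any one SB525334 mouse, without KN046 mouse 3 or 4, and with library totals alone. Mgl2, a lectin of macrophages and dendritic cells, was at 44.9, 44, 28.6 and 44.5 CPM against 2.92, 16, 11.4 and 13.6 CPM and rose by 1.88 (adjusted p = 0.0102), a call kept whichever mouse was left out. Spib, a transcription factor of plasmacytoid dendritic and B cells, rose by 1.83 and Sirpb1a, a myeloid receptor, by 1.56. The others were Rtn4r (1.85), the Nogo receptor, Syt13 (1.61), a synaptotagmin, Unc5c (1.56), a netrin receptor, and B3gnt7 (1.53), a glycosyltransferase. Syt13 kept its call whichever mouse was left out, and Spib, Sirpb1a, Rtn4r and B3gnt7 each lost it in 5 or 6 of the 8 such fits. Ccl17 lost its call without SB525334 mouse 4 or KN046 mouse 3, and Unc5c without SB525334 mouse 1 or 2. Of 33 chemokine and receptor genes 3 were higher (Ccl17, Cx3cr1 and Cxcl16) and 3 lower (Cxcl12, Cxcl13 and Ackr2), with 8 higher without KN046 mouse 2, 0 without KN046 mouse 3 and 1 without SB525334 mouse 1 or 4, and with 7 lower without SB525334 mouse 3. The other settings called 3 to 8 higher and 2 to 4 lower. Cxcl13, the B cell chemokine, had 3 counts with SB525334 and 113 with KN046, a ratio of 46.0 with an exact 95% counting interval of 15.4 to 226.6. Ccr2, the receptor of inflammatory monocytes, was at 36.2, 41, 35.8 and 47.1 CPM against 2.82, 27.1, 6.4 and 29.6 CPM and did not pass the test (log2 1.28, adjusted p = 0.146).

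Of 5 genes of immature neutrophils 2 were lower, and 1 without SB525334 mouse 1, with all 16 mice in 1 fit or with a mean of at least 1 CPM. Lcn2, a siderophore-binding protein of neutrophils and of the acute phase, was at 24.7, 16.6, 31.8 and 10.4 CPM with SB525334 and at 91, 99.6, 284 and 85.7 CPM with KN046 and fell by 2.75 on the log2 scale (adjusted p = 0.0029). KN046 mouse 3 was the highest by a wide margin. Ngp, a granule protein, fell by 2.7 and Retnlg, a resistin-like protein of mature neutrophils, by 3.61, both at low levels (KN046 means of 1.36 ± 1.1 (SD, n = 4) and 1.12 ± 0.335 (SD, n = 4) CPM). Of 14 mature neutrophil genes 1 was lower, and 5 were without SB525334 mouse 3. Of 8 erythroid genes 5 were lower, among them Hba-a1, an α globin, by 2.69 and Alas2, which starts heme synthesis, by 2.63. KN046 mouse 3 was the highest for both, and no erythroid gene was called without it or without SB525334 mouse 1, and 1 was without SB525334 mouse 2 or 4. The globin genes are near-identical pairs whose reads cannot be assigned with certainty.

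Cholesterol synthesis is run by every growing cell. Of 21 cholesterol and fatty acid synthesis genes, 17 were above 0, 3 were higher and 0 lower, with a median of 0.53. Sqle, squalene epoxidase, was at 246, 196, 230.1 and 291 CPM with SB525334 and at 62.8, 163, 147 and 119.8 CPM with KN046. All SB525334 mice lay above all KN046 mice, with KN046 mouse 1 far below the rest. Sqle rose by 0.96 (SE 0.25, adjusted p = 0.0286), Cyp51, the lanosterol demethylase, by 1.09 (0.0262), and Fdft1, squalene synthase, by 0.80 (0.0244). The count was 0 without SB525334 mouse 1, 1 without SB525334 mouse 4 or KN046 mouse 4, 6 without KN046 mouse 1, 7 without SB525334 mouse 2 and 10 without KN046 mouse 2. The other settings called 3 to 11 higher and 0 to 2 lower.

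Of 30 cell cycle genes 2 were lower and 0 higher. Mki67, the Ki-67 antigen of cycling cells, was at 158, 254, 155 and 175 CPM with SB525334 and at 472, 503, 363 and 283 CPM with KN046. The groups did not overlap, and Mki67 fell by 1.13 on the log2 scale (SE 0.21, adjusted p = 0.00571), though not in the fit of all 16 mice (adjusted p = 0.0515). Cenpe, a kinetochore motor, fell by 1.24. The list median was 0.04, and Top2a, the topoisomerase of dividing cells, was at 686 ± 62.9 (SD, n = 4) CPM against 643 ± 82.7 (SD, n = 4) CPM (log2 0.09, adjusted p = 0.633). Ribosomal protein genes (0 of 27 called, median 0.19) and oxidative phosphorylation genes (0 of 26, median 0.09) gave no call. By edgeR 2 and 5 of them had an unadjusted p under 0.05, beside 31.9% of all genes tested. Other settings called 0 to 2 ribosomal genes higher and 0 or 1 oxidative phosphorylation gene lower.

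Of 27 glycolysis and hypoxia genes 4 were lower and 0 higher, a share of 14.8% beside 13.8% of all genes. The count was 14 without KN046 mouse 2 and 2 without SB525334 mouse 1, 2 or 4 or KN046 mouse 1, 3 or 4. It was 3 to 8 over the other settings. Epas1, the hypoxia factor HIF-2α that is high in endothelium, was at 12.5, 13, 10.6 and 9.67 CPM with SB525334 and at 28.2, 51.3, 57.7 and 43.4 CPM with KN046 and fell by 1.98 on the log2 scale (adjusted p = 0.000479). Adm, a vessel-dilating peptide that hypoxia induces, was at 0.998, 0.436, 1.48 and 0.39 CPM against 12.9, 3.09, 13.1 and 8.82 CPM and fell by 3.52. Eno1, a glycolytic enzyme and the member with the highest level, was at 2607 ± 529 (SD, n = 4) CPM against 2806 ± 729 (SD, n = 4) CPM (adjusted p = 0.763). Of 16 epithelial genes 5 were lower, and 3 without SB525334 mouse 1 or 3 or KN046 mouse 1. Krt8, a keratin of simple epithelia that hepatocytes also make, was at 19.9, 19.6, 17.9 and 7.72 CPM with SB525334 and at 48.4, 84.6, 61.7 and 76.6 CPM with KN046. It fell by 2.06 and was lowest in SB525334 mouse 4, and which cells gave its difference was not tested. Krt18, its partner, fell by 1.94, and Cdh1, the adhesion protein of epithelia, by 0.88 (adjusted p = 0.0345), a call lost without SB525334 mouse 1, 2 or 3 or KN046 mouse 1 or 2. The mesenchymal gene Vim did not pass (log2 -0.31, adjusted p = 0.247). Of 25 genes of the unfolded protein and integrated stress responses 1 was higher, Sdf2l1, a chaperone of the endoplasmic reticulum, by 0.87 (adjusted p = 0.00232). By edgeR 10 of the 25 had an unadjusted p under 0.05, where 31.9% of all genes tested did. The other settings called 1 to 3 higher and 0 to 4 lower. Fits without 1 mouse called 1 higher and 0 to 4 lower.

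By the naming rule the 10 genes with the largest fall were Sult1b1, Cyp4a31, Cyp4a14, Mfsd2a, Rasd1, Cidec, Tat, Cyp4a10, Onecut1 and Slco1a4. Sult1b1, a sulfotransferase, had 0 counts in the 4 SB525334 mice and 76 in the 4 KN046 mice, which is at least 31.0-fold lower, computed against 3 counts over the group. Mfsd2a, a lysolipid transporter of liver and of the blood-brain barrier, was at 0.181, 0.793, 0.087 and 0.173 CPM with SB525334 and at 33.1, 12.1, 54.9 and 8.14 CPM with KN046. Tat, which degrades tyrosine, was at 5.35, 6.98, 3.13 and 0.52 CPM against 194, 66.7, 491 and 84.4 CPM. Cidec, a lipid droplet protein, was at 0, 0.0793, 0.261 and 0 CPM against 14.2, 2.4, 3.06 and 0.887 CPM, and Slco1a4, an organic anion importer, at 0.318, 0.436, 0.218 and 0.0867 CPM against 12, 10.7, 13 and 10.9 CPM. For Mfsd2a, Cidec and Tat the KN046 mice differed widely among themselves, and for Slco1a4 they were close. Of genes in no list, St3gal5, which makes the ganglioside GM3, fell by 1.88 on the log2 scale (adjusted p = 6.44e-05), Tkfc, a kinase of fructose metabolism, by 1.76, Gldc, of the glycine cleavage system, by 4.13, and Gnmt, a glycine methyltransferase, by 4.31. The others of this kind were Hsd17b13, Sult1a1, Urad and Pglyrp2, which fell by 3.67, 3.61, 4.20 and 2.88.

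The genes in no list that were higher with the smallest adjusted p differed by about 1 log2 unit or less. Samd1, a reader of unmethylated CpG islands, was at 81.8, 78.7, 82 and 71.7 CPM with SB525334 and at 49.5, 48.9, 44.1 and 52.8 CPM with KN046 and rose by 0.69 (SE 0.09, adjusted p = 0.00116). Dynll1, a dynein light chain, was at 288, 277, 245 and 269.5 CPM against 91, 155, 148 and 140.2 CPM and rose by 1.01 (adjusted p = 0.00204). Fnta, the subunit of protein prenyltransferases, rose by 0.61, Tradd, the adaptor of the TNF receptor, by 0.60, and Phlda3, a p53 target that restrains AKT, by 0.78. The other 5, Mcrip1, Tmem98, Txnl4a, P3h4 and Ppp1r14b, rose by 0.58, 0.61, 0.88, 0.58 and 0.68. All 10 had groups without overlap, as the rule required, and Ppp1r14b was not called in the fit of all 16 mice.

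The levels in the control mice, measured the same way on the scale of all 16 mice, are given side by side without a test. Alb lay at 7843 to 8414 CPM in the 4 control mice, beside 128.8 to 874 CPM with SB525334 and 5742 to 11060 CPM with KN046. Igfbp1 lay at 70.6 to 82.7 CPM in controls, between 8.79 to 11.9 CPM with SB525334 and 104.0 to 226 CPM with KN046. Cyp4a14, too, was between the 2 agents, at 1.66 to 10.1 CPM in controls. H2-Aa lay at 299 to 317 CPM in controls, beside 154.7 to 373 CPM with SB525334 and 82.7 to 213.6 CPM with KN046. Bcl11b lay at 1.46 to 2.71 CPM in controls, beside 0.955 to 1.67 CPM with SB525334 and 0.0559 to 0.266 CPM with KN046. Sqle lay at 158.5 to 242 CPM in controls, beside 196.5 to 289 CPM and 63.0 to 161.9 CPM. For H2-Aa, Sqle, Bcl11b and Pmepa1 (133.7 to 178.8 CPM in controls) the SB525334 median was nearer to the control median than the KN046 median was. For Alb and Stab2 (12 to 45.2 CPM in controls) the KN046 median was the nearer one. Genes of one direction did not all go the same way. The KN046 median was also nearer for Cx3cr1 (medians of 28.5 CPM in controls, 49.6 with SB525334 and 11.3 with KN046). So it was for Ccl17 (1.15, 2.50 and 0.553 CPM). For Ccn2, lower with SB525334, the SB525334 median was nearer (17.8, 13.2 and 28.5 CPM). Which agent moved a gene was not tested.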

How the data were processed

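RNA from the liver metastases of 16 mice was sequenced as mRNA libraries on an Illumina instrument, and the 8 mice given SB525334 alone or KN046 alone were compared. The authors deposited raw read counts per gene, made with cutadapt 2.7, HISAT2 2.2.1 and HTSeq 2.0.4 on GRCm39 according to the submitters' processing notes. Strand and multimapping settings are not given in the sources used here. The normalized counts, which the authors made with DESeq2 1.38.3, were not used. Genes were kept with filterByExpr of edgeR 4.0.16 (R 4.3.3, minimum count 10), scaled by TMM over the 8 mice (levels are counts relative to the scaled library total, CPM) and tested with the quasi-likelihood test, 1 term for treatment and Benjamini-Hochberg adjustment, at an adjusted p under 0.05. Each label names a separate mouse. Depth was 19241084 to 23877131 counts per mouse, and intervals of pooled counts cover counting error only. Scripts were tested on simulated data.

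Named genes were the drug targets and proteins the study stained, the 10 genes in each direction with the largest difference and the 10 in no list with the smallest adjusted p (mean of at least 1 CPM in the higher group, no overlap between groups), and in each list the member with the highest level and up to 2 called members with the smallest adjusted p. Other genes named were chosen after their values were seen. The lists and the comparison were chosen with earlier results of these data known. Alternatives were DESeq2 1.42.0, other scalings and filters, thinned counts, all 16 mice in 1 fit, the replicate number as a block, other thresholds and each mouse left out. The promoter is a RefSeq sequence on GRCm38.p6. Some genes given by the naming rule are not reported here.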

Additional observations from a re-analysis of the deposited data

Results flagged for a closer look

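In each group of 4 mice the highest or lowest level of each named gene was set against the other 3, and it was listed where its gap to the nearest relative to the whole range passed Dixon's 95% critical value for 4 samples. This held in 25 of 409 groups examined, where chance gives about 1 in 20, or 20.45. That rate need not hold for groups with only a few reads, where values tie at 0 or at the same few reads. Onecut1 and Cxcl13 had 2 and 3 counts over the 4 SB525334 mice, and Ifng had 2 over the 4 KN046 mice. The levels are CPM, and no cause was tested. SB525334 mouse 1 stood apart from its group for Ccn2 at 8.17 (others 12.9 to 13.6), Onecut1 at 0.0907 (others 0) and Rasd1 at 0 (others 0.0793 to 0.0870). SB525334 mouse 2 stood apart from its group for Fbln5 at 3.25 (others 1.48 to 1.77) and Mfsd2a at 0.793 (others 0.0870 to 0.181). SB525334 mouse 3 stood apart from its group for Il6 at 0.305 (others 0 to 0.0397), Mgl2 at 28.6 (others 44.0 to 44.9) and Retnlg at 0.305 (others 0 to 0.0433). SB525334 mouse 4 stood apart from its group for Cp at 68.6 (others 103 to 110.0), Ctla4 at 1.26 (others 0.363 to 0.476), Cxcl13 at 0 (others 0.0397 to 0.0454), H1f5 at 0.607 (others 0.907 to 0.914), Kng2 at 3.21 (others 7.14 to 7.94), Krt18 at 8.84 (others 18 to 18.7), Krt8 at 7.72 (others 17.9 to 19.9) and Pdcd1lg2 at 4.16 (others 0.914 to 1.32). KN046 mouse 1 stood apart from its group for Cidec at 14.2 (others 0.887 to 3.06). KN046 mouse 3 stood apart from its group for Alas2 at 15.2 (others 3.24 to 4.95), Bcl11b at 0.0557 (others 0.245 to 0.266), Cdh5 at 81.9 (others 52.3 to 57.3), Hba-a1 at 115 (others 19.3 to 35.4), Ifit2 at 22.5 (others 34.7 to 35.0) and Lcn2 at 284 (others 85.7 to 99.6). KN046 mouse 4 stood apart from its group for Ifng at 0.104 (others 0) and Phlda3 at 135 (others 101 to 106).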

How the results depend on the processing

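The higher count, 470, was 1079 with DESeq2, 905 with all 16 mice fitted together, 148 at the study's thresholds in DESeq2 and 48 with a fold change over 2 added. Leaving out 1 mouse gave 82 to 1047 genes higher and 881 to 1615 lower. With the replicate number as a block 490 genes were higher and 1316 lower, and 1566 of the 1851 calls were shared. Mice with the same number correlated at -0.125, 0.292, 0.246 and 0.076 and 2 of 4 correlated best with their own number. The numbers were taken as names only, but 4 pairs are too few to tell whether mice of the same number shared a step of handling. Of 202 named genes tested 139 were called, 103 of them in all fits without 1 mouse, 122 in all other settings and 101 in both, and 0 called genes reversed. The reversals were of genes that had not passed the test. With upper-quartile scaling Atp5f1b had a log2 difference of 0.0097 and Tcf7 of 0.0031, with library totals Atp5f1b 0.0457, Tcf7 0.0370 and Hsp90ab1 0.0037, and with no filter Atp5f1b 0.0095. Over the fits without 1 mouse the log2 differences that changed sign ran as follows: Atp5f1b -0.0818 to 0.0626, Bst2 -0.0607 to 0.117, Cd28 -0.0721 to 0.22, Cd80 -0.136 to 0.458, Cd86 -0.13 to 0.247, Col1a1 -0.473 to 0.105, Ecm1 -0.219 to 0.077, Eno1 -0.269 to 0.034, Fth1 -0.0244 to 0.143, H2-D1 -0.0399 to 0.158, Hsp90ab1 -0.185 to 0.0875, Postn -0.246 to 0.0901, Stab1 -0.237 to 0.162, Tcf7 -0.087 to 0.0606, Timp2 -0.0656 to 0.187, Xbp1 -0.0418 to 0.0969. The cause was not tested in any of these. Groups of 4 mice and low counts, as for Tagln, Il6 and Ifng, limit what could be detected.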

Other observations

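The genes here were chosen after their values were seen, from no fixed list. Hspa8, the constitutive HSP70 that folds new proteins, was at 4064, 3779, 3982 and 3720.5 CPM with SB525334 and at 1754, 2143, 2907 and 2028 CPM with KN046, without overlap, and rose by 0.82 on the log2 scale (SE 0.16, edgeR adjusted p = 0.00793). Fkbp4, Chordc1 and Ahsa1, which assist HSP90, rose by 0.76, 0.74 and 0.60. The HSP90 genes themselves did not pass the test, with 0.10 for Hsp90aa1 (adjusted p = 0.711) and -0.07 for Hsp90ab1 (adjusted p = 0.804). In the control mice Hspa8 lay at 2729 to 4848 CPM on the scale of all 16 mice.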
